A study of Mus musculus with 12 samples.

Results

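The transcripts described here are those of 33 interferon-stimulated genes in the mouse uterus, out of 27670 genes on the array. They were taken from a named list of genes that interferons are known to induce: every probe whose gene name in the files, or whose accession's current symbol, was on that list. Of their 49 probes, 45 passed the filter on dim probes, which asks for a signal well above background in all 3 mice of some group, and 32 of the 33 genes could be tested. The rule uses names and no level, but the list was drawn up with earlier results of these data known. Whole-uterus RNA came from 12 mice, 3 in each of 4 groups, with 1 uterus on each single-colour Agilent array. The groups were EAAE mice given estradiol (E2), EAAE mice given saline, wild-type (WT) mice given E2, and WT mice given saline. Both genotypes were females of strain C57bl6/Jx129, 10 weeks old or more, ovariectomized and rested for 10 to 14 days. Each received a 100 ul injection and the uterus was collected 2 h later. EAAE denotes an estrogen receptor alpha, the product of Esr1, that is deficient in DNA binding, as the series title gives it. The labels used here give neither the E2 dose nor the zygosity. The mice of all 4 groups lacked ovaries, so WT saline uteri represent a hormone-deprived state. The questions are which members differ between the genotypes without hormone, and which respond to E2 in each genotype.

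Interferons bind receptors at the cell surface, and Jak kinases then activate Stat transcription factors. A complex that holds Stat2 and Irf9 binds the interferon-stimulated response element (ISRE), and the response to interferon gamma runs through the gamma-activated site (GAS). The genes switched on this way encode sensors of viral RNA and DNA, enzymes that degrade RNA or tag proteins, and membrane and GTPase effectors that restrict viruses, bacteria and parasites. In the uterus these genes are known for their response to interferons of the conceptus in ruminants and to epithelial interferon epsilon in mice and humans.

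The letters of these elements stand in many of the members' own promoters. Promoter sequences of 25 of the 33 members were taken from RefSeq (GRCm38.p6), as the 250 bases before each annotated start. The ISRE core, GAAA followed by any 2 bases and GAAA again, was searched on both strands and stood in a promoter of 13 of the 25 members (52.0%), against 3.46% of all 27025 genes and 2.98% of all 32851 promoters. The GAS letters TTCNNNGAA, which read the same on both strands and can share bases with an ISRE match, stood in 5 of 25 (20.0%), against 8.13% of all genes and 7.02% of all promoters. The estrogen response element, GGTCA followed by any 3 bases and TGACC, also reads the same on both strands. It stood in 0 of 25, against 0.07% of all genes and 0.06% of all promoters. A match is only a run of letters in this window. The 6 promoters below are those with an ISRE match among the members with the smallest p-values in the comparisons that follow. Each is written 5′ to 3′ on the strand of its gene and ends at the base before the start, with the ISRE letters of either strand in capitals.
Isg15, a ubiquitin-like modifier, chr4:156200819-156201068, minus strand: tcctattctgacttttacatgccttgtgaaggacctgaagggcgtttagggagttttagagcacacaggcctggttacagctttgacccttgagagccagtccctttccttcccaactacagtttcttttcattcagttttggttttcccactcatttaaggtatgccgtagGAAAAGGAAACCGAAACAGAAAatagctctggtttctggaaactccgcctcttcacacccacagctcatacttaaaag
Bst2, a membrane tether of virus particles, chr8:71537473-71537722, minus strand: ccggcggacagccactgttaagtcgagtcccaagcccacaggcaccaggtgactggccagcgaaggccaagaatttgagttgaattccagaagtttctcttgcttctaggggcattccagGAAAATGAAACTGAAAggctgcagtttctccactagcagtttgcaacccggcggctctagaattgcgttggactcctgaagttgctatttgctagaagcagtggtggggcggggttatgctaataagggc
Oas1a, an oligoadenylate synthetase, chr5:120907526-120907775, minus strand: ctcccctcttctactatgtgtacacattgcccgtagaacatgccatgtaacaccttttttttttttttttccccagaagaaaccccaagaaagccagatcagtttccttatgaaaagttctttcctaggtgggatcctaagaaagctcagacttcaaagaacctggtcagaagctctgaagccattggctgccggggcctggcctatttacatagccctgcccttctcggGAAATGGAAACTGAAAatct
Irgm1, an immunity-related GTPase, chr11:48871421-48871670, minus strand: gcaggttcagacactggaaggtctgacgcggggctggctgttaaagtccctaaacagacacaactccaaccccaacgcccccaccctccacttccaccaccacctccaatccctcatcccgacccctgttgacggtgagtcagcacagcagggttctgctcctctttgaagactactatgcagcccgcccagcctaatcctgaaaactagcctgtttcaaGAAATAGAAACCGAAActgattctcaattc
Ifit3, a viral RNA-binding family member, chr19:34583279-34583528, plus strand: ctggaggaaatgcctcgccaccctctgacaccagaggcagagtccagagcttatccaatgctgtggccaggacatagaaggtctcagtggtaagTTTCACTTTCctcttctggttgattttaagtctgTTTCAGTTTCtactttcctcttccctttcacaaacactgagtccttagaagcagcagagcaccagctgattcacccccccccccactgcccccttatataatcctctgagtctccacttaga
Rsad2, the antiviral enzyme viperin, chr12:26456453-26456702, minus strand: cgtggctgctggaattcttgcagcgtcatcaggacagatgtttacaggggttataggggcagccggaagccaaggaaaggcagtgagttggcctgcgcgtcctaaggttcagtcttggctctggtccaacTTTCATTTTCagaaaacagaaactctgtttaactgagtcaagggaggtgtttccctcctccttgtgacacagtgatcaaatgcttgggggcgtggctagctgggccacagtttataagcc
In Isg15, 3 overlapping matches began 78, 72 and 66 bases before the start. Oas1a and Irgm1 each held an overlapping pair within 30 bases of the start, while the 2 matches of Ifit3 lay apart, at 156 and 122 bases. Rsad2 had 1 match, at 120 bases. Among the tested members, 12 had an ISRE match and 12 others had a promoter with none. Under saline 9 of the 12 members with a match and 9 of the 12 without were lower in EAAE than in WT, beside 15.1% of all genes. Their median log2 differences were -0.81 and -0.59. The other 8 tested members had no promoter sequence here (Iigp1, Mx1, Mx2, Oas2, Parp14, Rtp4, Usp18 and Zbp1). Of these 8, 7 were lower, with a median of -1.47. The 6 promoters include genes that moved in opposite directions after E2 in WT mice: Irgm1 rose, while Rsad2 and Ifit3 fell.

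All levels below are log2 values of the background-corrected intensity relative to the 75th percentile of the array, so that a difference of 1 is a doubling, and levels of different probes are not set against each other. Differences were tested with limma over all 12 arrays and called at a Benjamini-Hochberg adjusted p under 0.05 over 19304 genes. Median intensity per array was 162.5 to 249.5, and 63.98 to 74.03% of probes were well above background. Esr1 was detected in both genotypes and was higher in EAAE under saline by 0.41 (SE 0.10, adjusted p = 0.00903), a call that the mean of all Esr1 probes did not keep. The 12 arrays lay on 3 slides. The 3 EAAE E2 arrays all lay at position 4 of their slides, so this group and the position cannot be told apart in full, and WT arrays lay mostly at positions 1 and 2. In bulk tissue, fewer cells of a type and less RNA per cell cannot be told apart.

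Under saline, interferon-stimulated genes were lower in EAAE than in WT uteri almost throughout the list. Of 32 tested members, 25 were called lower and 0 higher in EAAE, or 78.1% against a background of 15.1% of all genes called lower, 14.5% called higher and 29.6% called in either direction. The median log2 difference of the members was -1.08, with a range of -2.82 for Oas2 to 0.05 for Trim25, and the median over all genes was 0.00. For 28 members all 3 EAAE arrays lay below all 3 WT arrays, against 23.5% of all genes, and for 0 members did they lie above, against 23.4%. Mx1 and Oas3 passed the filter on dim probes through WT mice alone, so a difference was built into their selection, and among the 30 members well above background on all 12 arrays 23 were lower. The 7 members not called were Ifit2, Ifit3, Ifitm3, Parp14, Rsad2, Stat2 and Trim25. With slide position as a linear term the number lower fell to 16, and the calls lost were those of Gbp2, Ifih1, Ifit1, Igtp, Iigp1, Irf1, Irgm1, Mx1 and Oas3.

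After E2 the genotype difference ran both ways, but a smaller share of members than of all genes was higher in EAAE. EAAE uteri had 19 members called lower than WT uteri (59.4%) and 5 called higher (15.6%), or 75% in either direction. The backgrounds were 24.5% of all genes lower, 33.5% higher and 58% in either direction. The members' median was -0.62, against 0.11 over all genes, and the range was -2.58 for Usp18 to 1.95 for Rsad2. EAAE arrays lay below all WT arrays for 20 members (27.2% of all genes) and above them for 6 (37.1%). The 5 higher members were Rsad2, Ifit3, Ifit2, Ifih1 and, on its brighter probe only, Trim25. With the mean of all probes of a gene Trim25 and Ifih1 were no longer called, which left 3, and the dimmer Trim25 probe was lower in EAAE by limma, with -0.70 (adjusted p = 0.00221). With the members well above background on all 12 arrays, 18 were lower and 6 higher. With slide position as a linear term 8 members stayed lower and 3 higher, and the lost calls were those of Gbp3, Ifi44, Ifi47, Irf7, Irf9, Mx1, Mx2, Oas2, Oasl1, Oasl2, Zbp1, Ifih1 and Ifit2.

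**Figure D1:**
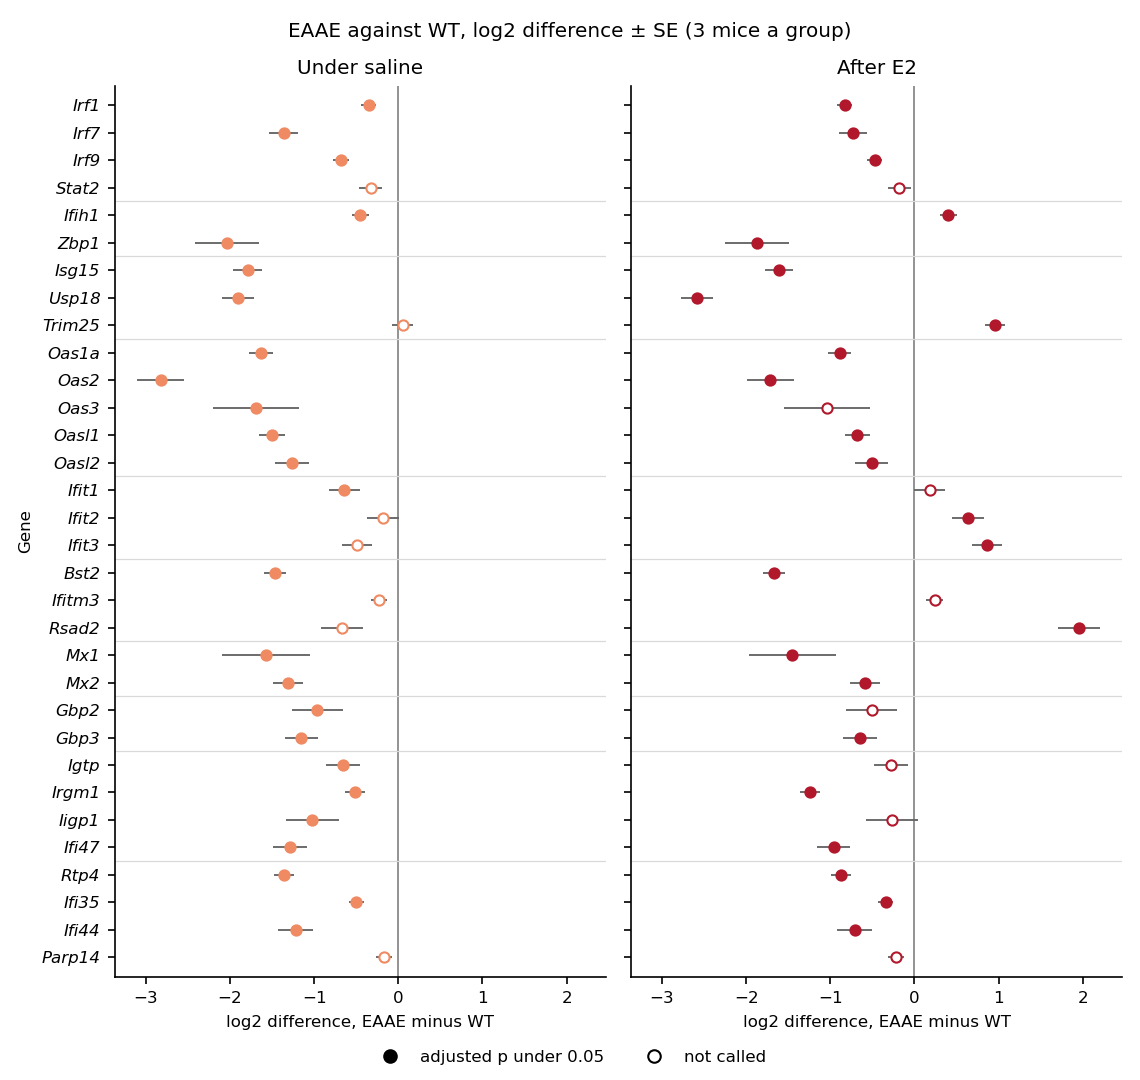
log2 difference of EAAE minus WT (x axis) for 32 interferon-stimulated genes (y axis, grouped by role), under saline on the left and after E2 on the right. Bars are standard errors with 3 mice a group, and filled points have an adjusted p under 0.05. Under saline 25 filled points lie below 0, and after E2 there are 19 below and 5 above.

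In WT mice, E2 lowered more members than it raised, as was also so for all genes. Of 32 members, 15 fell (46.9%) and 3 rose (9.38%) after E2, against backgrounds of 29.8% and 19.6% of all genes. In either direction 56.2% of the members were called, against 49.4% of all genes. The median was -0.43, against -0.15 over all genes, and the range was -2.33 for Rsad2 to 0.93 for Usp18. The E2 arrays lay below all saline arrays for 14 of 32 members, a share near the 39.7% of all genes, and above them for 4 (24.8% of all genes). The 3 that rose were Usp18, Irgm1 and Irf1. Trim25 counts among the 15 on its brighter probe only, and its dimmer probe rose by 0.75 by limma (adjusted p = 0.00209). The number that fell was 9 without WT E2 mouse 2 and 18 without WT E2 mouse 1, whose array had the highest level of its group for 27 of the 32 members. Markers of stroma, endothelium and adipocytes fell in the same comparison (values below). The 12 macrophage markers had a median of -0.60 there, with 2 called lower and 0 higher. Leaving out single arrays gave 1 to 4 macrophage markers lower. The part of these cell types in the members' difference was not tested. With array median scaling the calls of Oas1a, Oasl1 and Iigp1 were lost (adjusted p = 0.0593, 0.0594 and 0.0674), and so were those of Irf9 and Rtp4. With quantile normalization the call of Irf1 was lost (adjusted p = 0.342).

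In EAAE mice, limma called 0 of the 32 members higher and 0 lower after E2, where 0.684% and 0.751% of all genes were called, or 1.43% in either direction. At an unadjusted p under 0.05, 0 members were higher and 2 lower (Ifit2 and Irf1). The median difference was 0.08, against 0.02 over all genes, and the range was -0.46 to 0.64. E2 arrays lay above all saline arrays for 2 members (9.63% of all genes) and below them for 2 (8.87%). The E2 response was then compared between genotypes directly, as the E2 effect in EAAE minus that in WT. This response difference was above 0 and called for 12 members (22.3% of all genes) and below 0 and called for 2, Irgm1 and Irf1 (15% of all genes). Together that is 43.8% of the members, against 37.3% of all genes. It rests on all 4 groups, and the number above 0 was 7 without WT saline mouse 3, 6 without WT E2 mouse 2, 7 without WT E2 mouse 3 and 7 without EAAE saline mouse 2. The within-genotype and within-treatment comparisons share arrays in pairs and are not independent of each other.

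**Figure D2:**
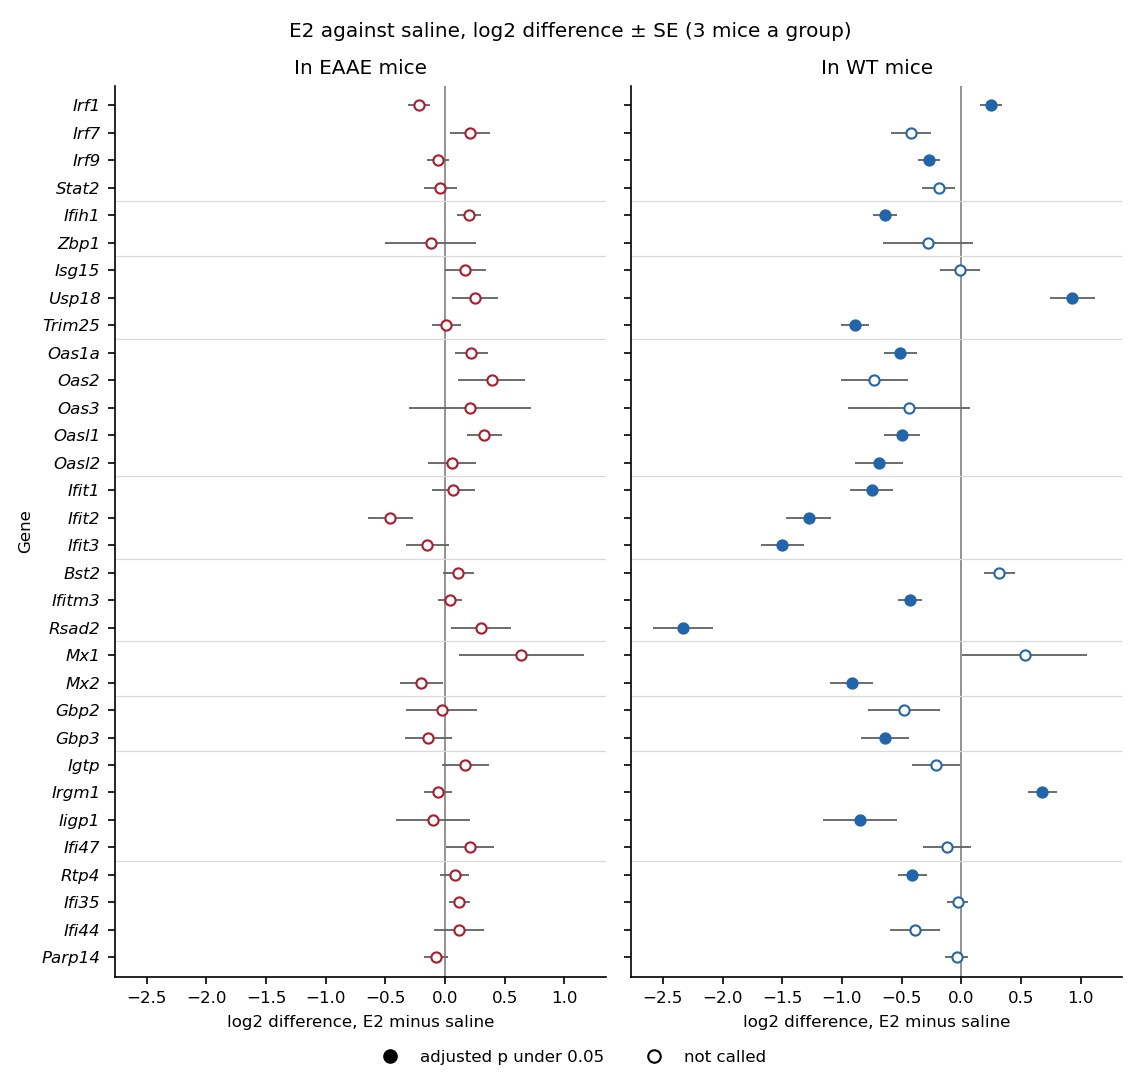
log2 difference of E2 minus saline (x axis) for 32 interferon-stimulated genes (y axis, grouped by role), in EAAE mice on the left and in WT mice on the right. Bars are standard errors with 3 mice a group, and filled points have an adjusted p under 0.05. No point is filled in EAAE mice, while 15 filled points lie below 0 and 3 above 0 in WT mice.

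**Figure D3:**
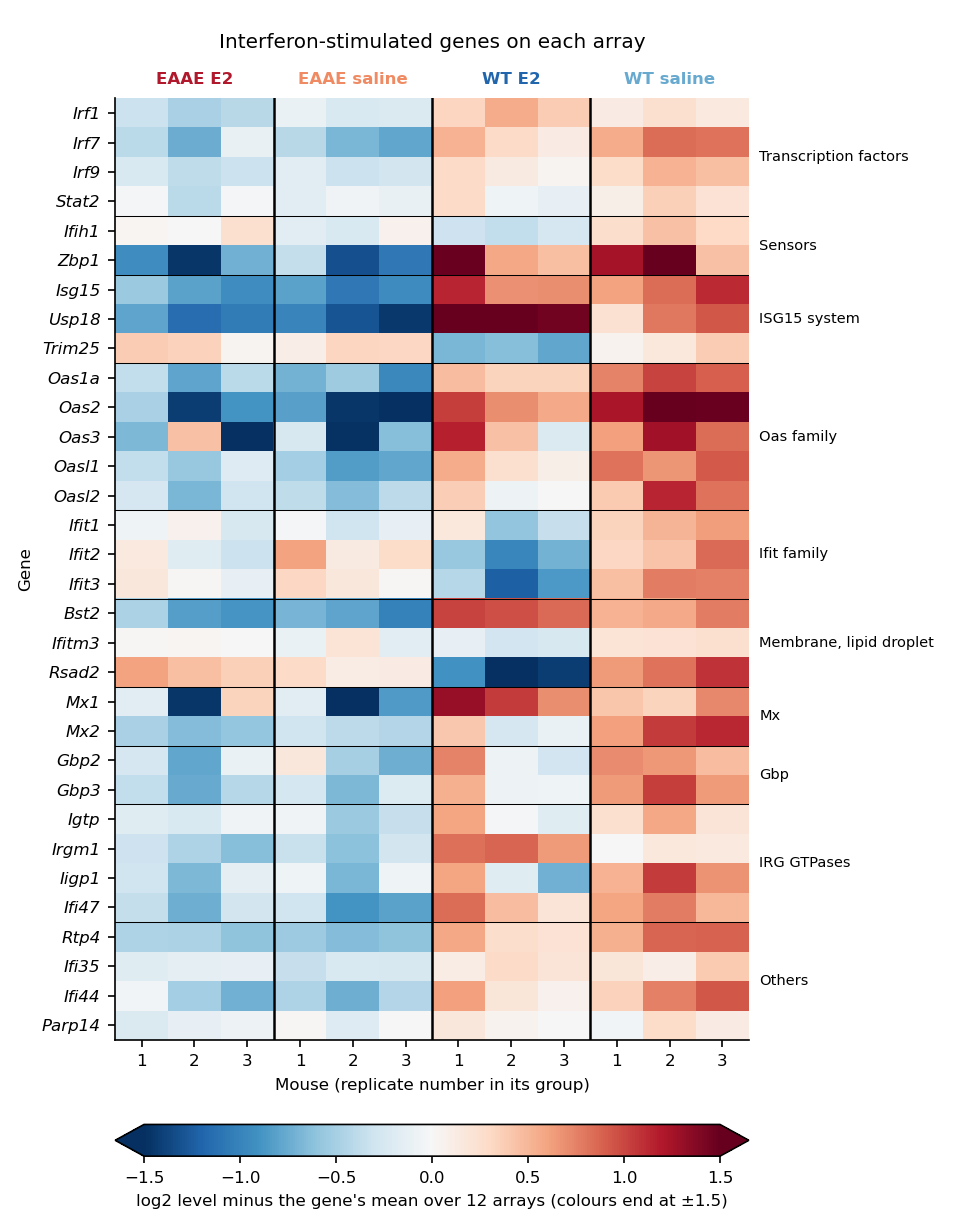
Level of each of 32 interferon-stimulated genes (rows, grouped by role) on each of the 12 arrays (columns, 3 mice a group), as the log2 level minus the gene's mean over all arrays. The median of these deviations per array was -0.50 to -0.28 in EAAE E2, -0.58 to -0.25 in EAAE saline, 0.02 to 0.52 in WT E2 and 0.43 to 0.71 in WT saline mice.

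The transcription factors of the pathway, Irf1, Irf7, Irf9 and Stat2, are themselves interferon-inducible. Of the 4, 3 were lower in EAAE both under saline and after E2, and Stat2 was called in neither.
After E2, Irf7 had levels of -1.83, -2.17 and -1.54 in EAAE mice, against -0.91, -1.14 and -1.30 in WT mice. Under saline, Irf7 had levels of -1.84, -2.11 and -2.21 in EAAE mice, against -0.87, -0.59 and -0.61 in WT mice. Every EAAE array lay below every WT array of the same treatment. Irf7, which amplifies the production of interferons, differed by -1.36 under saline (SE 0.17, adjusted p = 0.000282) and by -0.73 after E2 (SE 0.17, adjusted p = 0.00406). Its E2 difference in WT mice was -0.42 (adjusted p = 0.0627).
Irf9, the DNA-binding partner of Stat2, lay at 0.61, 0.46 and 0.52 in EAAE mice after E2, against 1.13, 0.98 and 0.88 in WT mice. Under saline, Irf9 lay at 0.67, 0.52 and 0.57 in EAAE mice, against 1.12, 1.37 and 1.29 in WT mice. The genotypes did not overlap in either treatment. The genotype difference was -0.68 under saline (SE 0.09, adjusted p = 0.000556) and -0.47 after E2 (SE 0.09, adjusted p = 0.00169). In WT mice Irf9 fell by 0.27 after E2 (SE 0.09, adjusted p = 0.0395). Without WT saline mouse 2 or 3 or WT E2 mouse 2 or 3, that adjusted p was 0.0985 to 0.139.

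Irf1, a factor induced mainly by interferon gamma, was at 3.21, 3.05 and 3.12 in EAAE mice after E2, against 3.86, 4.09 and 3.92 in WT mice. Under saline, Irf1 was at 3.43, 3.30 and 3.32 in EAAE mice, against 3.66, 3.77 and 3.68 in WT mice. All EAAE arrays lay below all WT arrays, and the gap was wider after E2. The difference was -0.83 after E2 (SE 0.09, adjusted p = 1.56e-05) and -0.35 under saline (SE 0.09, adjusted p = 0.0112, and 0.111 with slide as a block). The response difference was -0.47 (SE 0.12, adjusted p = 0.0117, and 0.051 with quantile normalization). In WT mice Irf1 rose by 0.25 after E2 (SE 0.09, adjusted p = 0.0313), but without WT saline mouse 1 or 3 or WT E2 mouse 2 or 3 the adjusted p was 0.0542 to 0.126.
Stat2 overlapped between genotypes after E2 and did not overlap under saline. After E2, Stat2 was at 0.26, -0.11 and 0.26 in EAAE mice, against 0.58, 0.23 and 0.17 in WT mice. Under saline, Stat2 was at 0.13, 0.24 and 0.18 in EAAE mice, against 0.38, 0.65 and 0.51 in WT mice. The saline difference of -0.33 was not called (adjusted p = 0.0987).

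The 2 nucleic acid sensors on the list behaved differently after E2. Ifih1, a helicase that senses long double-stranded RNA, lay at -0.10, -0.13 and 0.11 in EAAE mice after E2, against -0.44, -0.50 and -0.38 in WT mice. Under saline, Ifih1 lay at -0.29, -0.36 and -0.07 in EAAE mice, against 0.13, 0.31 and 0.17 in WT mice. The order of the genotypes was thus turned between the treatments, with no overlap in either. Ifih1 fell by 0.64 in WT mice after E2 (SE 0.10, adjusted p = 0.000462), and the response difference was 0.84 (SE 0.14, adjusted p = 0.0013). The genotype difference was -0.45 under saline (SE 0.10, adjusted p = 0.00828) and 0.40 after E2 (SE 0.10, adjusted p = 0.00631). A second, dim probe gave -0.80 for E2 in WT mice and -0.01 for the response difference, and averaging both probes ended the calls of the response and genotype differences. Zbp1, a sensor of nucleic acids in the Z form, averaged -2.72 ± 0.38 in EAAE mice and -0.85 ± 0.56 in WT mice after E2 (SD, n = 3 each). Its saline means were -2.60 ± 0.50 in EAAE mice and -0.57 ± 0.62 in WT mice (SD, n = 3 each). Zbp1 was lower in EAAE by limma under saline, with a difference of -2.03 (SE 0.38, adjusted p = 0.00309), and after E2, with -1.87 (SE 0.38, adjusted p = 0.0017).

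The Isg15 system tags proteins with a ubiquitin-like modifier. Isg15 itself was at -0.96, -1.21 and -1.34 in EAAE mice after E2, against 0.74, 0.28 and 0.29 in WT mice. Under saline, Isg15 was at -1.21, -1.48 and -1.35 in EAAE mice, against 0.20, 0.43 and 0.71 in WT mice. The genotypes were far apart in both treatments, and E2 and saline arrays of the same genotype overlapped. The genotype difference was -1.79 under saline (SE 0.17, adjusted p = 4.24e-05) and -1.61 after E2 (SE 0.17, adjusted p = 1.61e-05). The E2 difference was -0.01 in WT mice (adjusted p = 0.96) and 0.17 in EAAE mice (adjusted p = 0.646). The files (build mm7) place the Isg15 probe on chromosome 17, whereas RefSeq places the gene on chromosome 4, so its identity rests on the accession in the files.
Usp18, the protease that removes Isg15 from proteins and restrains the interferon receptor, was at -0.80, -1.15 and -1.05 in EAAE mice after E2, against 1.75, 1.54 and 1.44 in WT mice. Under saline, Usp18 was at -1.00, -1.30 and -1.45 in EAAE mice, against 0.22, 0.79 and 0.93 in WT mice. The WT E2 arrays were all above the WT saline arrays, and all WT arrays were above all EAAE arrays. Usp18 rose by 0.93 after E2 in WT mice (SE 0.19, adjusted p = 0.00242), and in EAAE mice its difference was 0.25 (adjusted p = 0.56). The response difference of -0.68 was not called (adjusted p = 0.0716). The genotype difference was -1.90 under saline (SE 0.19, adjusted p = 6.87e-05) and -2.58 after E2 (SE 0.19, adjusted p = 1.61e-06). The Usp18 probe lies on chromosome 6, from 121295796 to 121295855 (mm7, plus strand).

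Trim25, a ubiquitin ligase first described as an estrogen-responsive finger protein, gave results that depended on the probe. After E2, its brighter probe was at 2.99, 2.95 and 2.64 in EAAE mice, against 1.92, 1.96 and 1.83 in WT mice. Under saline, the brighter Trim25 probe was at 2.70, 2.93 and 2.92 in EAAE mice, against 2.66, 2.76 and 2.99 in WT mice. The WT E2 arrays stood below all the others, and the other 3 groups overlapped. This probe fell by 0.89 in WT mice after E2 (SE 0.12, adjusted p = 0.000172), and the response difference was 0.90 (SE 0.17, adjusted p = 0.00257). After E2 it was higher in EAAE by 0.96 (SE 0.12, adjusted p = 7.07e-05).
The dimmer Trim25 probe went the other way. It averaged -2.40 ± 0.33 in EAAE E2, -2.57 ± 0.09 in EAAE saline, -1.70 ± 0.12 in WT E2 and -2.44 ± 0.11 in WT saline mice (SD, n = 3 each). It was higher after E2 in WT mice by 0.75 (SE 0.15, adjusted p = 0.00209). With the mean of both probes the E2 difference in WT mice was -0.07 (adjusted p = 0.598), so no direction is given for the Trim25 gene. The brighter probe lies on chromosome 11 from 89128930 to 89128989 and the dimmer one from 89126055 to 89126114 (mm7, plus strand), and how they sit in the exons was not analysed here.

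**Figure D4:**
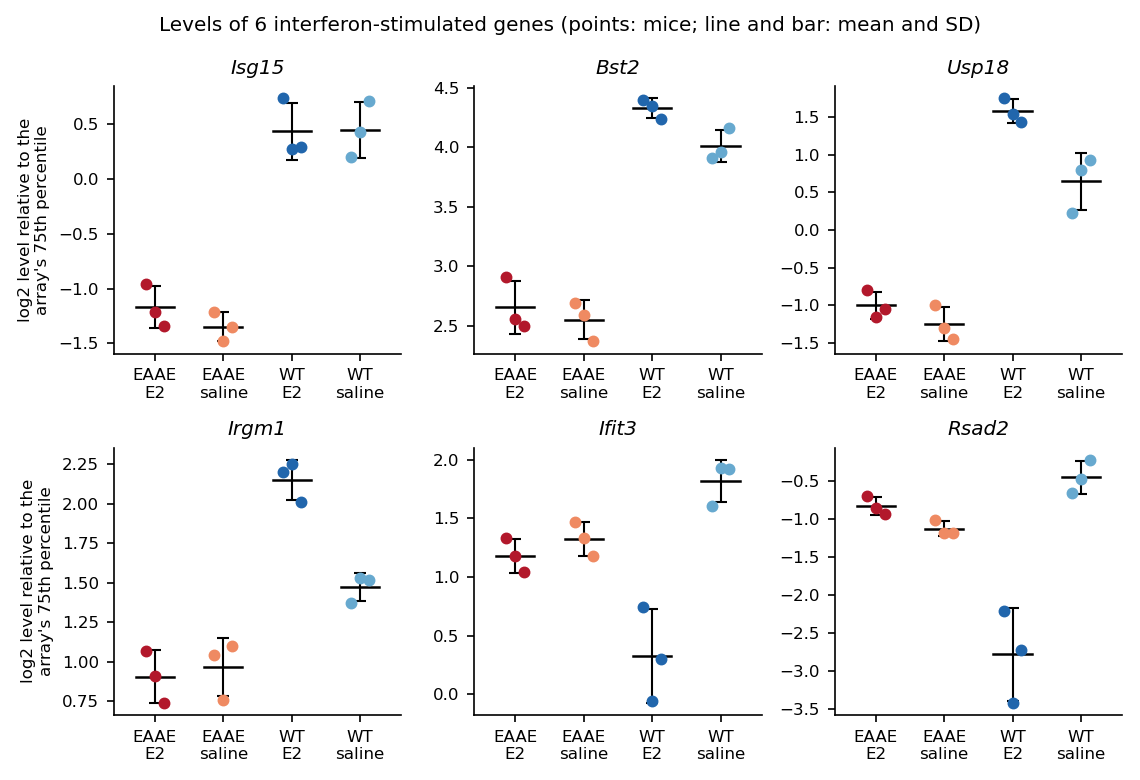
log2 level relative to the array's 75th percentile (y axis) of 6 interferon-stimulated genes in the 4 groups (x axis), with 1 point a mouse and the mean ± SD of 3. Isg15, Bst2 and Usp18 are lower in both EAAE groups than in both WT groups. Usp18 and Irgm1 are highest in WT E2 mice, and Ifit3 and Rsad2 are lowest in WT E2 mice.

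The oligoadenylate synthetases sense double-stranded RNA and activate RNase L, and their family held the largest saline genotype difference of the list, that of Oas2. Of the 6 family members listed, 5 were tested. Oas1a, Oas2, Oasl1 and Oasl2 were measured well above background in all mice and were lower in EAAE under saline. Oas1g, the sixth, had a single probe that was well above background on 0 of 12 arrays.
After E2, Oas2 was at -1.76, -2.70 and -2.17 in EAAE mice, against -0.23, -0.57 and -0.71 in WT mice. Under saline, Oas2 was at -2.09, -2.73 and -2.98 in EAAE mice, against -0.05, 0.51 and 0.21 in WT mice. The EAAE arrays lay well below the WT arrays in both treatments. The Oas2 difference was -2.82 under saline (SE 0.28, adjusted p = 6.34e-05) and -1.71 after E2 (SE 0.28, adjusted p = 0.000409). The E2 difference in WT mice was -0.73 (adjusted p = 0.0525). The response difference of 1.12 (SE 0.40) had an adjusted p of 0.0482, which became 0.081 to 0.105 without WT saline mouse 2 or 3, WT E2 mouse 2 or 3, EAAE saline mouse 2 or 3 or EAAE E2 mouse 1 or 3.
After E2, Oas1a was at -0.52, -0.94 and -0.55 in EAAE mice, against 0.31, 0.18 and 0.18 in WT mice. Under saline, Oas1a was at -0.86, -0.68 and -1.12 in EAAE mice, against 0.60, 0.87 and 0.75 in WT mice. The 3 ranges of EAAE, WT E2 and WT saline arrays did not overlap. Oas1a differed between genotypes by -1.63 under saline (SE 0.14, adjusted p = 2.93e-05) and by -0.89 after E2 (SE 0.14, adjusted p = 0.000332). It fell by 0.51 in WT mice after E2 (SE 0.14, adjusted p = 0.0123), and the response difference was 0.73 (SE 0.20, adjusted p = 0.0167, and 0.0703 with slide as a block).

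The relatives Oasl1 and Oasl2 followed the same order of groups. After E2, Oasl1 was at -2.78, -2.98 and -2.60 in EAAE mice, against -1.85, -2.17 and -2.32 in WT mice. Under saline, Oasl1 was at -2.92, -3.24 and -3.19 in EAAE mice, against -1.59, -1.74 and -1.49 in WT mice. WT saline arrays were the highest, WT E2 arrays lay below them, and EAAE arrays lay below both. The genotype difference of Oasl1 was -1.50 under saline (SE 0.15, adjusted p = 6.02e-05) and -0.68 after E2 (SE 0.15, adjusted p = 0.00262). Its response difference of 0.83 (SE 0.21, adjusted p = 0.0111) held under all alternatives run. It fell by 0.50 in WT mice after E2 (SE 0.15, adjusted p = 0.0167), with an adjusted p of 0.0558 to 0.0671 without WT saline mouse 3 or WT E2 mouse 2 or 3.
Oasl2 averaged 0.90 ± 0.23 in EAAE E2, 0.84 ± 0.15 in EAAE saline, 1.41 ± 0.23 in WT E2 and 2.10 ± 0.38 in WT saline mice (SD, n = 3 each). It was lower in EAAE under saline by limma, with a difference of -1.26 (SE 0.20, adjusted p = 0.00108), and fell by 0.69 in WT mice after E2 (SE 0.20, adjusted p = 0.0146). The fall in WT mice had an adjusted p of 0.057 to 0.0587 without WT saline mouse 2 or WT E2 mouse 2. Its genotype difference after E2, -0.51, had an adjusted p of 0.0473 that was 0.0519 to 0.163 without any 1 of 9 arrays (WT saline mouse 3, all WT E2 and EAAE saline mice, and EAAE E2 mice 2 and 3).
Oas3 was dim, being well above background in 1 of 3 EAAE E2 mice, 1 of 3 EAAE saline mice and all WT mice. Its mean was -5.83 ± 0.64 in EAAE saline mice and -4.14 ± 0.33 in WT saline mice (SD, n = 3 each), and since the EAAE values are mostly at background no size is given for its difference. Several of these genes are close relatives that lie near each other on chromosome 5, so probes may share signal between them.

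The Ifit genes encode proteins that bind viral RNA lacking host caps. Here the clearest differences were those of E2 in WT mice, where all 3 fell.
After E2, Ifit3 was at 1.33, 1.18 and 1.04 in EAAE mice, against 0.74, -0.06 and 0.30 in WT mice. Under saline, Ifit3 was at 1.47, 1.33 and 1.18 in EAAE mice, against 1.61, 1.93 and 1.92 in WT mice. WT saline arrays were the highest and WT E2 arrays the lowest, with the EAAE arrays of both treatments between them. Ifit3 fell by 1.50 in WT mice after E2 (SE 0.18, adjusted p = 9.03e-05), against a difference of -0.15 in EAAE mice (adjusted p = 0.74). The response difference was 1.35 (SE 0.26, adjusted p = 0.00282). EAAE was higher than WT after E2 by 0.86 (SE 0.18, adjusted p = 0.00239), and the saline difference of -0.49 was not called (adjusted p = 0.0709). A near-identical gene copy may share these signals.
After E2, Ifit2 was at -1.09, -1.42 and -1.56 in EAAE mice, against -1.81, -2.22 and -1.95 in WT mice. Under saline, Ifit2 was at -0.63, -1.10 and -0.96 in EAAE mice, against -0.93, -0.81 and -0.39 in WT mice. The saline arrays of the genotypes overlapped, and the WT E2 arrays were the lowest. Ifit2 fell by 1.28 in WT mice after E2 (SE 0.19, adjusted p = 0.000253), and its difference in EAAE mice was -0.46 (adjusted p = 0.262). After E2 it was higher in EAAE by 0.64 (SE 0.19, adjusted p = 0.0127, and 0.0546 without WT E2 mouse 2). The response difference of 0.82 (SE 0.26, adjusted p = 0.0314) became 0.0518 to 0.0779 without WT saline mouse 3, WT E2 mouse 2 or 3, EAAE saline mouse 2 or 3 or EAAE E2 mouse 1.
Ifit1 averaged -1.29 ± 0.15 in EAAE E2, -1.36 ± 0.15 in EAAE saline, -1.48 ± 0.38 in WT E2 and -0.72 ± 0.15 in WT saline mice (SD, n = 3 each). Ifit1 fell by 0.75 in WT mice after E2 by limma (SE 0.18, adjusted p = 0.00502). Its saline genotype difference of -0.64 (adjusted p = 0.0206) was 0.0527 to 0.0728 without WT saline mouse 2 or 3 or EAAE saline mouse 2 or 3. Its response difference of 0.82 (adjusted p = 0.0255) was 0.0501 to 0.0609 without WT saline mouse 2 or 3, WT E2 mouse 2 or 3, EAAE saline mouse 2 or EAAE E2 mouse 2.

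Rsad2, or viperin, makes a nucleotide analogue that stops viral polymerases, and it had the largest E2 difference of the list in WT mice. After E2, Rsad2 was at -0.70, -0.85 and -0.94 in EAAE mice, against -2.21, -3.42 and -2.72 in WT mice. Under saline, Rsad2 was at -1.01, -1.19 and -1.18 in EAAE mice, against -0.66, -0.48 and -0.22 in WT mice. On the probe used, the WT E2 arrays lay far below all the others, and in EAAE mice the E2 arrays lay just above the saline arrays. Rsad2 fell by 2.33 in WT mice after E2 (SE 0.25, adjusted p = 3.39e-05), and its difference in EAAE mice was 0.30 (95% interval -0.26 to 0.85, adjusted p = 0.592). The response difference was 2.62 (SE 0.35, adjusted p = 0.000315). After E2, EAAE was higher by 1.95 (SE 0.25, adjusted p = 7.03e-05), while the saline difference of -0.67 was not called (adjusted p = 0.0655). The other 2 Rsad2 probes gave E2 differences in WT mice of -1.67 (adjusted p = 0.0452) and -2.11 (adjusted p = 0.000485). In EAAE mice these 2 probes gave -0.16 and -0.19, and neither was called. For EAAE against WT after E2 they gave 0.62 (adjusted p = 0.424) and 1.25 (adjusted p = 0.00874) by limma. Their response differences were 1.51 (adjusted p = 0.199) and 1.92 (adjusted p = 0.0103). The probe used lies on chromosome 12 from 24278814 to 24278873 (mm7, minus strand).

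The membrane proteins Bst2 and Ifitm3 differed from each other. Bst2, or tetherin, which holds budding virus at the cell surface, was at 2.91, 2.56 and 2.50 in EAAE mice after E2, against 4.40, 4.35 and 4.24 in WT mice. Under saline, Bst2 was at 2.69, 2.59 and 2.37 in EAAE mice, against 3.91, 3.96 and 4.16 in WT mice. All EAAE arrays lay far below all WT arrays. Bst2 differed between genotypes by -1.67 after E2 (SE 0.13, adjusted p = 2.08e-06) and by -1.46 under saline (SE 0.13, adjusted p = 3.02e-05). Its E2 difference in WT mice was 0.32 (adjusted p = 0.06). The Bst2 probe lies on chromosome 8 from 70001866 to 70001925 (mm7, minus strand).
Ifitm3, which blocks the fusion of incoming viruses, averaged 4.83 ± 0.01 in EAAE E2, 4.79 ± 0.20 in EAAE saline, 4.59 ± 0.08 in WT E2 and 5.02 ± 0.02 in WT saline mice (SD, n = 3 each). Ifitm3 fell by 0.43 in WT mice after E2 by limma (SE 0.10, adjusted p = 0.00405). It was called in neither genotype comparison (adjusted p = 0.0961 under saline and 0.0535 after E2). The response difference was 0.48 (SE 0.14, adjusted p = 0.0207, 0.0537 without WT E2 mouse 2 and 0.061 with slide as a block).

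The GTPases on the list are the Mx, guanylate-binding and immunity-related families. Of the 8, the 7 that were well above background in all mice were called lower in EAAE under saline, though only Mx2, Gbp3 and Ifi47 held that call under every alternative run.
After E2, Mx2 was at -1.63, -1.80 and -1.73 in EAAE mice, against -0.74, -1.40 and -1.24 in WT mice. Under saline, Mx2 was at -1.44, -1.54 and -1.58 in EAAE mice, against -0.53, -0.09 and -0.01 in WT mice. EAAE arrays lay below the WT arrays of the same treatment, and WT E2 below WT saline arrays. Mx2, a dynamin-like antiviral GTPase, fell by 0.92 in WT mice after E2 (SE 0.18, adjusted p = 0.0015) and differed by -1.31 between genotypes under saline (SE 0.18, adjusted p = 0.000401). After E2 the genotype difference was -0.59 (SE 0.18, adjusted p = 0.0144). The response difference of 0.72 (adjusted p = 0.0428) was 0.055 to 0.0999 without WT saline mouse 2 or 3, WT E2 mouse 2 or 3 or any single EAAE mouse.
Mx1, its relative, was well above background in 2 of 3 EAAE E2, 2 of 3 EAAE saline and all WT mice. Its mean was -4.86 ± 0.93 in EAAE mice and -3.41 ± 0.30 in WT mice after E2 (SD, n = 3 each), and -5.51 ± 1.03 in EAAE mice and -3.94 ± 0.20 in WT mice under saline (SD, n = 3 each). Its calls were lost when some single arrays were left out, and no size is given for its differences.

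Irgm1, a regulator of autophagy and of the other immunity-related GTPases, rose in WT mice and not detectably in EAAE mice. After E2, Irgm1 was at 1.07, 0.91 and 0.74 in EAAE mice, against 2.20, 2.25 and 2.01 in WT mice. Under saline, Irgm1 was at 1.04, 0.76 and 1.10 in EAAE mice, against 1.37, 1.53 and 1.52 in WT mice. WT E2 arrays were above all WT saline arrays, which were above all EAAE arrays. Irgm1 rose by 0.68 in WT mice after E2 (SE 0.12, adjusted p = 0.000929), and its difference in EAAE mice was -0.06 (95% interval -0.32 to 0.21). The response difference was -0.73 (SE 0.17, adjusted p = 0.007). The genotype difference was -1.24 after E2 (SE 0.12, adjusted p = 9.4e-06) and -0.51 under saline (SE 0.12, adjusted p = 0.00969). A second Irgm1 probe gave 0.74 for E2 in WT mice and -1.38 for EAAE against WT after E2.
None of the other GTPases was called higher after E2. Gbp3, a guanylate-binding protein that the files call Gbp4, averaged 0.68 ± 0.21 in EAAE E2, 0.82 ± 0.26 in EAAE saline, 1.33 ± 0.35 in WT E2 and 1.96 ± 0.23 in WT saline mice (SD, n = 3 each). Gbp3 was lower in EAAE under saline by limma, with -1.15 (SE 0.20, adjusted p = 0.00205), and after E2 with -0.65 (adjusted p = 0.0179, and 0.0667 to 0.068 without WT E2 mouse 1 or EAAE E2 mouse 2). It fell by 0.64 in WT mice after E2 (adjusted p = 0.0229, and 0.0806 to 0.0882 without WT saline mouse 2 or WT E2 mouse 2 or 3).
Ifi47 differed by -1.29 under saline (SE 0.20, adjusted p = 0.00108) and by -0.96 after E2 (SE 0.20, adjusted p = 0.00211), and its E2 difference in WT mice was -0.12.
Gbp2, Igtp and Iigp1, which act on the vacuoles of intracellular pathogens, differed under saline by -0.96, -0.66 and -1.02 (adjusted p = 0.0348, 0.0319 and 0.0326). None of these 3 calls outlasted the removal of single arrays. For Gbp2 the adjusted p was 0.0634 to 0.126 without any single WT saline mouse or EAAE saline mouse 2 or 3. For Igtp it was 0.0621 to 0.106 without WT saline mouse 1 or 2 or EAAE saline mouse 2 or 3, and for Iigp1 it was 0.0532 to 0.108 without any single WT saline mouse or EAAE saline mouse 2 or 3. Iigp1 also fell by 0.85 in WT mice after E2 (adjusted p = 0.0433), with 0.0507 to 0.159 without any 1 of 9 arrays (all WT saline mice, WT E2 mice 2 and 3, EAAE saline mice 1 and 3 and EAAE E2 mice 1 and 3).

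Of the 4 remaining members, Rtp4 and Ifi35 were lower in EAAE in both treatments, and Ifi44 was lower under saline on both of its probes. Rtp4, a receptor-transporter protein that is strongly interferon-inducible, was at 1.78, 1.76 and 1.63 in EAAE mice after E2, against 2.82, 2.50 and 2.46 in WT mice. Under saline, Rtp4 was at 1.70, 1.59 and 1.63 in EAAE mice, against 2.77, 3.11 and 3.12 in WT mice. The EAAE arrays of both treatments overlapped and lay below every WT array. Its genotype difference was -1.36 under saline (SE 0.12, adjusted p = 3.44e-05) and -0.87 after E2 (SE 0.12, adjusted p = 0.000141). Rtp4 fell by 0.41 in WT mice after E2 (adjusted p = 0.018, and 0.0657 to 0.0692 without WT saline mouse 2 or 3 or WT E2 mouse 2 or 3). Its response difference of 0.49 (adjusted p = 0.0465) was 0.0636 to 0.105 without WT saline mouse 2 or 3, WT E2 mouse 2 or 3, any single EAAE saline mouse or EAAE E2 mouse 1 or 2.
Ifi35 was lower in EAAE by a smaller amount, with -0.50 under saline (SE 0.09, adjusted p = 0.00248) and -0.34 after E2 (SE 0.09, adjusted p = 0.00773). Ifi44 differed by -1.22 under saline (SE 0.21, adjusted p = 0.00206) and by -0.71 after E2 (adjusted p = 0.0154, and 0.0608 to 0.0614 without WT E2 mouse 1 or EAAE E2 mouse 3). A second Ifi44 probe fell by 1.25 in WT mice after E2 (adjusted p = 0.000249), where the first gave -0.39 (adjusted p = 0.158), so the E2 response of Ifi44 depends on the probe. For EAAE against WT after E2 the second probe gave 0.46 (adjusted p = 0.0513), and the mean of both probes gave -0.13 (adjusted p = 0.594), so no direction is given there.
Parp14, an ADP-ribosyltransferase that acts with interferon and interleukin signals, was called in no comparison on its brightest probe, with a saline genotype difference of -0.17 (adjusted p = 0.224). Another of its 3 probes fell by 0.86 in WT mice after E2 (SE 0.12, adjusted p = 0.000217), while the third was not called. The probe that fell was also higher in EAAE after E2 by limma, with 0.88 (adjusted p = 0.000122), where the brightest probe gave -0.22. Its response difference was 0.75 (adjusted p = 0.00691), against -0.05 on the brightest probe, so these results for Parp14 depend on the probe.

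The genes upstream of the members were taken from lists of the interferon pathway. Of 18 listed interferons, 14 were on the array and 8 could be tested. Averaged over these 8 genes, the log2 level was -4.72 to -4.07 on the 12 arrays. Ifng, the gene of interferon gamma, was lower in EAAE under saline, with -1.66 (SE 0.30, adjusted p = 0.0026), and after E2, with -1.64 (adjusted p = 0.000906). With slide position as a term the adjusted p of Ifng was 0.0522 under saline and 0.147 after E2. After E2, Ifng was at -4.63, -4.92 and -5.18 in EAAE mice, against -2.71, -3.29 and -3.82 in WT mice. Under saline, Ifng was at -4.74, -5.75 and -5.49 in EAAE mice, against -3.54, -3.62 and -3.84 in WT mice, and 2 of the 3 EAAE arrays were above background. The lowest signals well above background were -5.73 and -5.68 on the arrays of EAAE saline mice 2 and 3. The size of the saline difference is therefore limited by background. The genotypes did not overlap. Ifne, the epithelial interferon epsilon, was well above background only in the 3 WT saline mice. No change is given for it, since it was not well above background in the other groups.

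Of 11 tested receptor, kinase and Stat genes, 6 fell and 2 rose in WT mice after E2, beside 29.8% and 19.6% of all genes.
Most receptor subunits fell in WT mice after E2. Ifnar2, a subunit of the type I receptor, was at 1.15, 1.13 and 0.91 in EAAE mice after E2, against 0.65, 0.57 and 0.48 in WT mice. Under saline, Ifnar2 was at 1.06, 1.24 and 1.11 in EAAE mice, against 1.25, 1.24 and 1.34 in WT mice. The WT E2 arrays were below all the others. Ifnar2 fell by 0.71 in WT mice after E2 (SE 0.09, adjusted p = 0.000103), and the saline genotype difference was -0.14 (adjusted p = 0.262). Ifnlr1, of the lambda receptor, fell by 1.42 in WT mice after E2 (SE 0.13, adjusted p = 1.13e-05). Its partner Il10rb fell by 0.90 (adjusted p = 5.77e-05), the gamma receptor genes Ifngr1 and Ifngr2 by 0.48 and 0.69 (adjusted p = 0.00134 and 0.00356), and the kinase Tyk2 by 0.61 (adjusted p = 3.67e-05). Ifnar1, the other subunit of the type I receptor, was not called, with -0.26 (adjusted p = 0.106).

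Among 8 inhibitors of the pathway, 4 rose and 2 fell in WT mice after E2, beside 19.6% and 29.8% of all genes, and 1 fell when any 1 of 8 arrays was left out. Socs1, which blocks Jak kinases, was at 0.37, 0.42 and 0.76 in EAAE mice after E2, against 4.58, 4.77 and 4.62 in WT mice. Under saline, Socs1 was at 0.61, 0.95 and 0.85 in EAAE mice, against 0.47, 0.62 and 0.64 in WT mice. The WT E2 arrays stood far above the other 3 groups, which overlapped. Socs1 rose by 4.08 in WT mice after E2 (SE 0.13, adjusted p = 2.37e-08), its difference in EAAE mice was -0.28 (adjusted p = 0.303), and the response difference was -4.36 (SE 0.18, adjusted p = 5.62e-07). Socs3, its relative, rose by 3.79 (SE 0.25, adjusted p = 1.53e-06) and the phosphatase gene Ptpn2 by 0.79 (adjusted p = 3.92e-05) in WT mice.
Among 16 tested sensor and adaptor genes, 4 rose and 4 fell in WT mice after E2, shares near those of all genes (19.6% and 29.8%), and without WT saline mouse 2 the number that rose was 2. Tlr3, a sensor of double-stranded RNA, fell by 1.21 (adjusted p = 0.000115), while Mavs, the adaptor of the RNA helicases, rose by 0.62 (adjusted p = 0.000101). Under saline 1 sensor gene was higher and 3 were lower in EAAE, beside 14.5% and 15.1% of all genes. Among the lower was Dhx58, a relative of Ifih1, with -1.07 (SE 0.13, adjusted p = 0.000174).
A list of 48 other interferon-induced genes, 44 of them tested, was compared in the same way. Under saline 22 were lower and 1 higher in EAAE, beside 15.1% and 14.5% of all genes, with a median of -0.49, and leaving out single arrays gave 16 to 22 lower. Ifi203, a DNA-binding relative of the innate DNA sensors, differed by -1.60 (SE 0.16, adjusted p = 6.51e-05) and Lgals3bp, a secreted glycoprotein, by -1.38 (SE 0.13, adjusted p = 5.07e-05). In WT mice after E2, 21 fell and 4 rose (13 fell without WT E2 mouse 2), beside 29.8% and 19.6% of all genes, with a median of -0.42. Sp100, a nuclear body protein, fell by 0.76 (SE 0.09, adjusted p = 4.75e-05), and Znfx1, an RNA helicase, rose by 0.65 (SE 0.08, adjusted p = 0.000101). After E2, 8 were higher and 12 lower in EAAE, beside 33.5% and 24.5% of all genes. In EAAE mice, limma called 0 of the 44 after E2.

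Markers of other uterine cell types moved with the genotype or with E2. Of 12 macrophage markers, 7 were lower and 0 higher in EAAE under saline, beside 15.1% and 14.5% of all genes, with a median of -1.30. The count was 2 without WT saline mouse 1, 4 without EAAE saline mouse 2 and 3 without EAAE saline mouse 3. Aif1 differed by -1.30 (SE 0.22, adjusted p = 0.00194) and Lyz2, the macrophage lysozyme, by -1.85 (SE 0.42, adjusted p = 0.00767). After E2, 1 marker, Cd14, was higher and 0 were lower in EAAE, beside 33.5% and 24.5% of all genes, with a median of -0.23. Without EAAE E2 mouse 1, 5 were lower, and without EAAE E2 mouse 2, 4 were higher.
The mean log2 level of these markers was 1.61, 0.06 and 0.81 in EAAE E2 mice, 0.53, 0.24 and 0.14 in EAAE saline mice, 0.80, 0.68 and 0.55 in WT E2 mice, and 1.72, 1.17 and 1.17 in WT saline mice. The mean level of the 32 interferon-stimulated genes was 0.02, -0.22 and -0.09 in EAAE E2 mice, 0.02, -0.32 and -0.20 in EAAE saline mice, 0.73, 0.35 and 0.29 in WT E2 mice, and 0.72, 0.97 and 0.92 in WT saline mice. EAAE E2 mouse 1 had a macrophage level near that of WT saline mice, and its level of interferon-stimulated genes lay below that of every WT mouse. WT saline mouse 1 had the highest macrophage level and the lowest interferon-stimulated level of its group. In the WT E2, EAAE saline and EAAE E2 groups, mouse 1 had the highest level of both sets. Under saline both sets were lower in EAAE, and the part of macrophages in the interferon-stimulated difference was not tested.

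**Figure D5:**
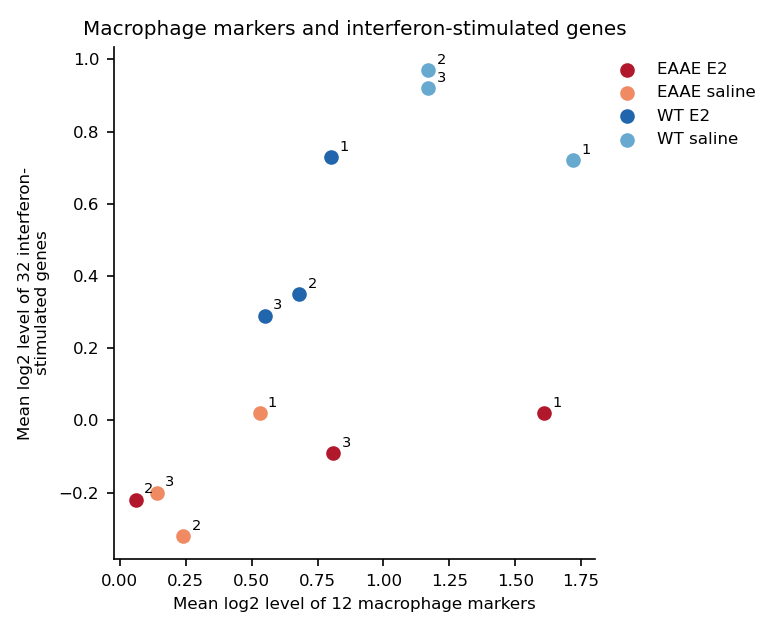
Mean log2 level of 32 interferon-stimulated genes (y axis) against that of 12 macrophage markers (x axis), with 1 point for each of the 12 mice, numbered within its group. The 6 EAAE mice lie at or below 0.02 on the y axis and the 6 WT mice at or above 0.29. EAAE E2 mouse 1 lies at 1.61 on the x axis, near the WT saline mice.

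Of 10 lymphocyte markers, 3 were lower in EAAE under saline (Cd8a, Klrb1c and Nkg7), beside 15.1% of all genes. Only 1 lymphocyte marker was lower without WT saline mouse 1, WT saline mouse 2 or EAAE saline mouse 2. Their mean level was -3.94 to -3.64 in EAAE saline mice and -3.46 to -3.21 in WT saline mice. After E2, 1 lymphocyte marker was higher in EAAE, beside 33.5% of all genes. The mean level of the lymphocyte markers was then -3.73 to -3.25 in EAAE mice and -3.84 to -3.32 in WT mice. Epithelial markers went the other way. Of 6, 5 were higher in EAAE under saline (median 0.81) and 4 after E2 (median 0.84), beside 14.5% and 33.5% of all genes. Their mean level was 4.15 to 4.35 in EAAE saline mice and 3.47 to 3.72 in WT saline mice. Of the plasmacytoid dendritic cell markers, 3 of 4 could be tested, and Siglech was not well above background. 
Other cell types stood apart in WT mice given E2. Of 6 stromal markers, 5 fell in WT mice after E2 (median -1.03), beside 29.8% of all genes. After E2, 5 stromal markers were higher in EAAE than in WT (median 0.99), beside 33.5% of all genes. Their mean level was 3.40 to 3.70 in EAAE E2, 3.21 to 3.47 in EAAE saline, 2.42 to 2.51 in WT E2 and 3.34 to 3.51 in WT saline mice. Of 7 endothelial markers, 5 fell in WT mice after E2 (median -0.35), beside 29.8% of all genes. Of these markers, 3 fell without WT saline mouse 3 or WT E2 mouse 1, and 2 with array median scaling. Their mean level was 0.94 to 1.23 in EAAE E2, 0.97 to 1.04 in EAAE saline, 0.72 to 0.82 in WT E2 and 1.23 to 1.27 in WT saline mice.
All 5 adipocyte markers fell in WT mice after E2 (median -3.25), beside 29.8% of all genes. Only 1 fell without WT saline mouse 1, WT E2 mouse 1 or WT E2 mouse 3, and 3 fell without WT saline mouse 3 and 2 with the slide as a block. The 5 were higher in EAAE than in WT after E2 (median 3.78), beside 33.5% of all genes. Among them, Lep was not well above background in any WT E2 mouse, so in both comparisons a difference was built into its selection. Of the 5, 3 were higher without WT E2 mouse 3 or EAAE E2 mouse 1 and 0 with slide position as a term. Their mean level spread widely within groups, at 1.12 to 3.26 in EAAE E2, 0.59 to 2.95 in EAAE saline, -3.04 to 0.05 in WT E2 and 0.24 to 3.16 in WT saline mice. Of 5 smooth muscle markers, 3 were lower in EAAE after E2 (median -0.41), beside 24.5% of all genes. The number was 1 with slide position as a term and 0 with the compared groups alone in the fit. The part of lymphocytes, epithelium, stroma, endothelium, adipocytes and muscle in the interferon-stimulated differences was not tested.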

How the data were processed

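Single-colour Agilent arrays measured whole-uterus RNA of 12 mice, 1 mouse an array. Per the labels' protocols, 500 ng of total RNA of each uterus was labelled with Cy3. The deposited intensity is the background-corrected processed signal of Agilent Feature Extraction 9.5.3.1, per the file headers (9.5 in the submitters' processing notes), not scaled between arrays. The deposited series table equalled these intensities on each of the 45018 spots, so its scale is linear and uncentred (column medians of 147.7 to 225.4).

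From these, control spots (1639 an array) and outlier spots (1 to 16 non-uniform and 43 to 114 population outliers an array) were left out, and 3 to 5 saturated spots were kept. The 75th percentile of each array (intensities of 1398.0 to 1941.8) was subtracted on the log2 scale. Of 41174 probes, the 29017 with a signal well above background in all 3 mice of some group were tested, and the brightest tested probe stood for a gene. Names came from accessions and symbols in the files matched to RefSeq (GRCm38.p6), and coordinates are those of the files (mm7). The 4 groups were compared with limma 3.58.1 in R 4.3.3 (lmFit, then eBayes) in 5 contrasts of 1 fit on 12 arrays, 2-sided, with Benjamini-Hochberg adjustment over 19304 genes and a threshold of 0.05. Tables and plots used Python 3.11.15, numpy 2.4.6, pandas 2.3.3 and matplotlib 3.10.9. Fits were tested on simulated data.

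The members, pathway lists and marker lists were chosen with earlier results of these data known. All members are named. Values on every array are given for the 6 members with the smallest p in each direction and comparison, and for Isg15, Rsad2, Irf7, Irf9, Stat2 and Irf1. Pathway genes are the few with the smallest p, and Ifnar1, Ifnar2, Ifngr1, Ifngr2, Ifne and Socs1, and 1 gene of these lists is not reported here. Alternatives were other scalings, background correction and probe filters, the mean of a gene's probes, slide, position and replicate blocks, only the compared groups, and leaving out each array. The precision is limited by 3 mice a group.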

Additional observations from a re-analysis of the deposited data

Results flagged for a closer look

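The E2 response differed between the genotypes by the test of the difference itself (E2 effect in EAAE minus that in WT, limma, 3 mice a group) for 14 members, each listed here with its log2 value. That is 43.8% of the tested members, against 37.3% of all genes, and 4 of the 14 calls held under every alternative run. The largest response difference was that of Rsad2 at 2.62, followed by Ifit3 at 1.35 and Oas2 at 1.12. Trim25 had 0.90 on its brighter probe, Ifih1 0.84, Oasl1 0.83, Ifit1 0.82 and Ifit2 0.82. Oas1a had 0.73, Mx2 0.72, Rtp4 0.49 and Ifitm3 0.48. The 2 members with a difference below 0 were Irgm1 at -0.73 and Irf1 at -0.47.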

How the results depend on the processing

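Of the calls among the members, 16 of 25 for EAAE against WT under saline, 10 of 24 after E2, 9 of 18 for E2 in WT mice and 4 of 14 for the response difference (Ifit3, Irgm1, Oasl1 and Rsad2) held under every alternative run. Leaving out single arrays gave 19 to 26 members lower in EAAE under saline, 15 to 19 lower and 4 to 6 higher after E2, 9 to 18 that fell and 2 to 4 that rose after E2 in WT mice, and response differences above 0 for 6 to 15 and below 0 for 2 to 3. The number that fell in WT mice was 9 without WT E2 mouse 2. The response difference above 0 was called for 7 without WT saline mouse 3, 6 without WT E2 mouse 2, 7 without WT E2 mouse 3 and 7 without EAAE saline mouse 2. Position on the slide as a linear term, an alternative chosen after seeing the data, gave 16 lower in EAAE under saline, and 8 lower and 3 higher after E2. The mean of all tested probes of a gene gave 3 higher in EAAE after E2, and quantile normalization gave 1 response difference below 0. In these cases the cause was not tested beyond the fewer samples or the changed term itself. The genotype difference of Esr1 after E2 turned to -0.03 (adjusted p = 0.836) with the mean of all Esr1 probes, against 0.42 on its brightest probe.

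The replicate numbers did not pair the mice: the correlation of same-numbered deviations from the group means was -0.282 to 0.19. With the replicate block, 25 members were lower in EAAE under saline, 18 lower and 5 higher after E2, 14 fell and 2 rose after E2 in WT mice, 0 were called in EAAE mice, and the response difference was called above 0 for 10 and below 0 for 2. Within slides, the median of the members for EAAE against WT under saline was -1.06 on slide 1, which held all 4 groups. For E2 in WT mice it was -0.42 on slide 1 and -0.58 on slide 3. For EAAE against WT after E2 it was -0.34, -1.06 and -0.40 on slides 1 to 3, and for E2 in EAAE mice 0.29 on slide 1 and -0.14 on slide 2. Each of these within-slide values compares 1 mouse with 1 mouse, or with 2 saline mice for WT on slide 3 and EAAE on slide 2. They are thus not replicated within a slide. The median E2 difference over all genes in WT mice was -0.15 with 75th percentile scaling, -0.01 with array median scaling and -0.12 with quantile normalization, against -0.43, -0.30 and -0.39 for the members. Mx1 and Oas3 were not well above background on all EAAE arrays, which limits the precision of their differences.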
